A study of Gallus gallus with 18 samples.

Results

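A set of 100 chicken genes had almost no reads in lymphoid cells and in proliferating erythroblasts and was read after the erythroblasts had been induced to differentiate. These genes were chosen by their own RNA-seq levels, out of 17108 annotated genes. Their mean level had to be below 0.5 CPM (reads per 1000000 reads on genes) in each of the 2 cell types without induction, and at least 3 CPM after it. The levels of these genes are therefore a description of what was selected, and the edgeR calls given further on repeat that selection and are no evidence for it.

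Total RNA depleted of rRNA was sequenced from 2 libraries of each cell type, which the study describes as independent biological replicates. HD3dif cells are HD3 erythroblasts kept for 14 h at 42 °C with 20 µM iso-H-7, a protein kinase inhibitor, and 10 mM HEPES. HD3pr cells are the same line growing at 37 °C without these additions. HD3 is clone A6 of the LSCC line, an erythroblast line transformed by avian erythroblastosis virus. DT40, also grown at 37 °C, is a lymphoid line from a bursal lymphoma that avian leukosis virus had induced in a Hyline SC chicken. Temperature, inhibitor, buffer and atmosphere were changed together, so their parts in any difference between HD3dif and HD3pr cannot be told apart. Each cell type is 1 line, and a difference between DT40 and the HD3 cells cannot be told apart from a difference between lines. In whole-culture RNA, a few cells with much of a transcript and many cells with little of it cannot be told apart either.

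In the red cell lineage, committed erythroblasts divide for a limited time and then leave the cell cycle, build up haemoglobin and condense their chromatin. Terminal differentiation is known mostly for strong transcription of a few erythroid genes, the globins above all, and for the closing down of much of the remaining genome. Genes with only a trace of reads in the dividing erythroblast and more after induction are the subject here. The files give each gene by its Ensembl identifier alone, and of the 17108 identifiers 0 could be matched to a symbol in the RefSeq gene table used here. The roles of the genes are therefore not described, cell type markers could not be checked against the labels, and only 2 identifiers are printed. The others are referred to by their rank in mean HD3dif level, where rank 1 is the highest.

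The libraries held 20100063 and 24054973 reads on genes in HD3dif, 30576844 and 29784807 in HD3pr, and 28726204 and 33433279 in DT40. A level of 3 CPM corresponded to 60.3 and 72.2 reads in the HD3dif libraries, and a level of 0.5 CPM to 14.4 to 16.7 reads in the HD3pr and DT40 libraries. Reads on genes were 34.4 ± 1.93% of all counted reads in HD3dif, 45.3 ± 1.22% in HD3pr and 54.6 ± 1.20% in DT40 (mean ± SD, n = 2). Reads without a gene feature, which can include introns, sequence between genes and the opposite strand, were 46.3 ± 0.502% in HD3dif, 33.7 ± 0.519% in HD3pr and 27.8 ± 1.29% in DT40 (mean ± SD, n = 2). This shift moves with induction, and its part in the levels of the 100 genes was not tested.

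The highest level in the set was that of ENSGALG00000004860. It had 408 and 679 reads in the HD3dif libraries (20.3 and 28.2 CPM), 7 and 17 reads in HD3pr (0.229 and 0.571 CPM) and 7 and 11 reads in DT40 (0.244 and 0.329 CPM). Both HD3dif libraries lay far above the other 4, and replicate 2 of HD3pr was by itself above the 0.5 CPM that the mean had to stay under. In pooled reads the level in HD3dif was 61.9 times that in HD3pr (41.4 to 97.1, exact 95% interval) and 85.0 times that in DT40 (53.5 to 144). These intervals, like all those given here, come from the reads and cover counting error only.

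ENSGALG00000003803 came next. It had 447 and 557 reads in HD3dif (22.2 and 23.2 CPM), 7 and 13 reads in HD3pr (0.229 and 0.436 CPM), and 0 reads in either DT40 library. Its HD3dif replicates were closer to each other than those of the first gene. The level in HD3dif was 68.6 times that in HD3pr (44.2 to 113). With 3 reads over both DT40 libraries in place of 0, the fold over DT40 was 471. The exact interval of this fold started lower, at 382.

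The levels of the 100 genes in each library describe what the limits selected. In HD3dif they ranged from 2.34 to 22.2 CPM in replicate 1 (median 4.10) and from 2.54 to 28.2 CPM in replicate 2 (median 4.07). In HD3pr they ranged from 0 to 0.719 CPM in replicate 1 (median 0.229) and from 0 to 0.671 CPM in replicate 2 (median 0.235). In DT40 they ranged from 0 to 0.661 CPM (median 0.0696) and from 0 to 0.568 CPM (median 0.0897). For each of the 100 genes both HD3dif libraries were above all 4 others. The lower HD3dif library exceeded the highest of the other 4 libraries by 3.69 to 141 times, with a median of 10.7 times.

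**Figure D1:**
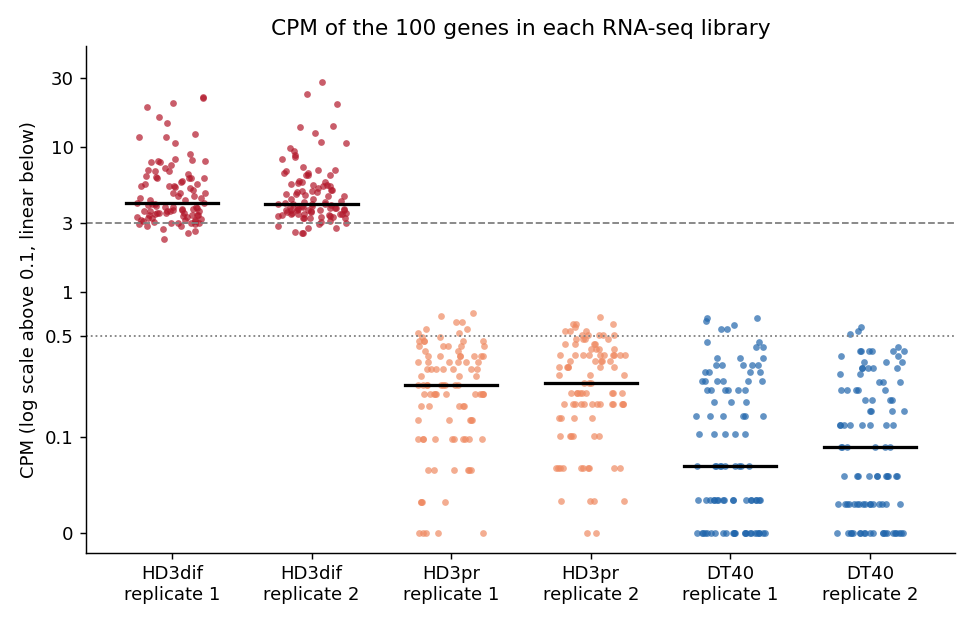
CPM of each of the 100 genes (points) in the 6 RNA-seq libraries, with the median of the set as a black bar. The axis is logarithmic above 0.1 CPM and linear below it, and the lines mark 3 CPM (dashed) and 0.5 CPM (dotted). Medians lie at 4.10 and 4.07 CPM in HD3dif, at 0.229 and 0.235 CPM in HD3pr, and at 0.0696 and 0.0897 CPM in DT40.

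Most of these genes were read at a low level even after induction. The mean HD3dif level was between 3 and 4 CPM for 48 genes, between 4 and 5 CPM for 18, between 5 and 10 CPM for 24 and at least 10 CPM for 10. The median was 4.07 CPM and the highest level was 8.05 times the lowest. The 10 highest genes held 28.0% of the summed HD3dif level of the set, and the 25 highest held 46.9%. CPM is not divided by transcript length, so this order is one of reads and not of transcript numbers.

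Together the 100 genes took up 0.0568% and 0.0549% of the reads on genes in the HD3dif libraries, 0.00255% and 0.00271% in HD3pr, and 0.00150% and 0.00138% in DT40. The summed level was 559 ± 13.3 CPM in HD3dif, 26.3 ± 1.10 CPM in HD3pr and 14.4 ± 0.863 CPM in DT40 (mean ± SD, n = 2). The spread between replicates of this sum was thus small beside the distance between cell types, which the selection itself had set.

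Ranks 3, 4 and 9 are examples of how individual genes differed. The gene of rank 3 had 19.0 and 20.0 CPM in HD3dif, 0.294 and 0.436 CPM in HD3pr and 0.0696 and 0.0299 CPM in DT40. For rank 4 the levels were 21.7 and 10.8 CPM in HD3dif, 0.327 and 0.403 CPM in HD3pr, and 0 and 0.0598 CPM in DT40. The HD3dif replicates of rank 3 were close to each other, while replicate 1 of rank 4 was far above replicate 2. At rank 9 a gene had 10.7 and 10.8 CPM in HD3dif, 0.0654 and 0.302 CPM in HD3pr and 0.244 and 0.269 CPM in DT40. Its levels in HD3pr and DT40 overlapped, whereas those of rank 3 were higher in both HD3pr libraries than in either DT40 library.

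Few of the genes were without any read in the cell types without induction. Over the HD3pr libraries, 94 of the 100 had a read in both, 1 had 0 reads in both, and 8 had at most 3 reads in all. Over the DT40 libraries, 69 had a read in both, 14 had 0 reads in both and 42 had at most 3 reads in all. Across all 4 libraries without induction the genes had 1 to 56 reads (median 26), and 0 genes were unread in all 4. A count of 0 in 1 library allows a level of up to 0.0981 to 0.101 CPM in HD3pr and 0.0897 to 0.104 CPM in DT40.

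The genes nearest to a full absence of reads before induction were 4 with at most 3 reads over the HD3pr and DT40 libraries. The gene of rank 29 had 139 and 114 reads in HD3dif (6.92 and 4.74 CPM), 0 and 1 reads in HD3pr, and 0 reads in either DT40 library. Rank 45 had 78 and 119 reads in HD3dif, 2 and 1 in HD3pr and 0 in either DT40 library. Rank 48 had 105 and 80 reads in HD3dif, 0 and 1 in HD3pr and 0 and 1 in DT40. These 3 were close to unread in HD3pr and in DT40. The gene of rank 68 had 75 and 83 reads in HD3dif and 2 and 1 in DT40. It was the only one of the 100 with 0 reads in both HD3pr libraries. With 3 reads over both HD3pr libraries in place of 0, its fold over HD3pr was 72.0. The exact interval of this fold started lower, at 57.9.

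Residual reads were more frequent in HD3pr than in DT40. The rule capped both cell types at the same level and set no order between them directly. It did ask for a high level in HD3dif, which is the same line as HD3pr. The part of this in the order was not tested. The mean HD3pr level was above the mean DT40 level for 74 of the 100 genes and below it for 26. Both HD3pr libraries were above both DT40 libraries for 57 genes, against 22.1% of the 3350 genes that were below 0.5 CPM in both cell types and had a read in at least 1 of the 4 libraries. Both DT40 libraries were above both HD3pr libraries for 13 of the 100 genes, against 28.0% of the 3350. The median residual level was 0.264 CPM in HD3pr and 0.113 CPM in DT40 for the set. It was 0.0331 CPM in HD3pr and 0.0473 CPM in DT40 for the 3250 genes among the 3350 outside it, so the 100 genes also had higher residual levels in either cell type than the other genes. The 3350 genes were thus not matched to the set in level, and the part of read number in these shares was not tested. No test of this order was run.

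The order of the residual levels kept its direction under other scalings. With TMM factors, the trimmed-mean library factors of edgeR, 61 of the 100 genes had both HD3pr libraries higher and 11 had both DT40 libraries higher, against 25.6% and 25.0% of the 3350. With levels taken over all counted reads, the numbers were 48 and 18, against 18.8% and 32.5%. Among the 25 genes with the highest HD3dif level, 14 had both HD3pr libraries above both DT40 libraries and 4 the opposite. Among the 75 remaining genes these numbers were 43 and 9, so the upper and the lower ranks showed similar shares, 56% and 57.3%.

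**Figure D2:**
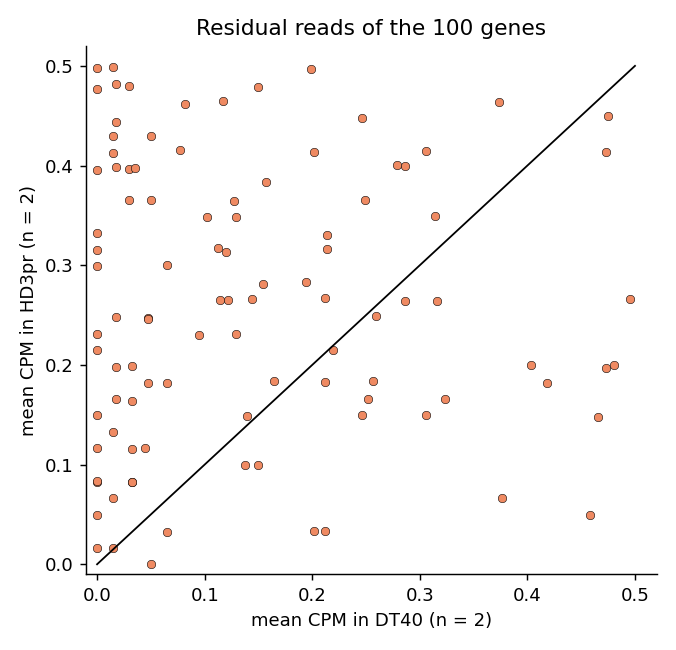
Mean CPM in HD3pr (vertical axis) against mean CPM in DT40 (horizontal axis) for each of the 100 genes, n = 2 libraries each, with the line of equal levels. Of the 100 points 74 lie above the line and 26 below it, and both axes end where the selection limit of 0.5 CPM lies.

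The fold of HD3dif over each cell type without induction was computed from reads pooled over replicates. Genes with 0 reads in the lower cell type were entered with 3 reads in place of 0. Their exact intervals start below the folds entered. Over HD3pr the folds ran from 6.78 to 346 with a median of 17.7. They were at least 10 for 81 genes, at least 20 for 46 and at least 50 for 21. Over DT40 they ran from 6.84 to 777 with a median of 54.2, and were at least 10 for 92 genes, at least 20 for 74 and at least 50 for 51. The limits on mean level lie 6-fold apart, so high folds were part of the selection.

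The upper end of this range rests on very few reads. The highest fold over HD3pr, 346 for the gene of rank 29, had 1 HD3pr read behind it and a counting interval from 61.5 to 13714. The gene of rank 11 had 181 and 211 reads in HD3dif, 1 and 2 in HD3pr, and 10 and 19 in DT40. Its fold was 179 over HD3pr (60.7 to 869.9) and 19.0 over DT40. Reads in HD3pr numbered 1 to 3 for 7 genes, and reads in DT40 numbered 1 to 3 for 28 genes. The lower end of the interval was at least 5 for 96 genes over HD3pr and for 97 over DT40.

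**Figure D3:**
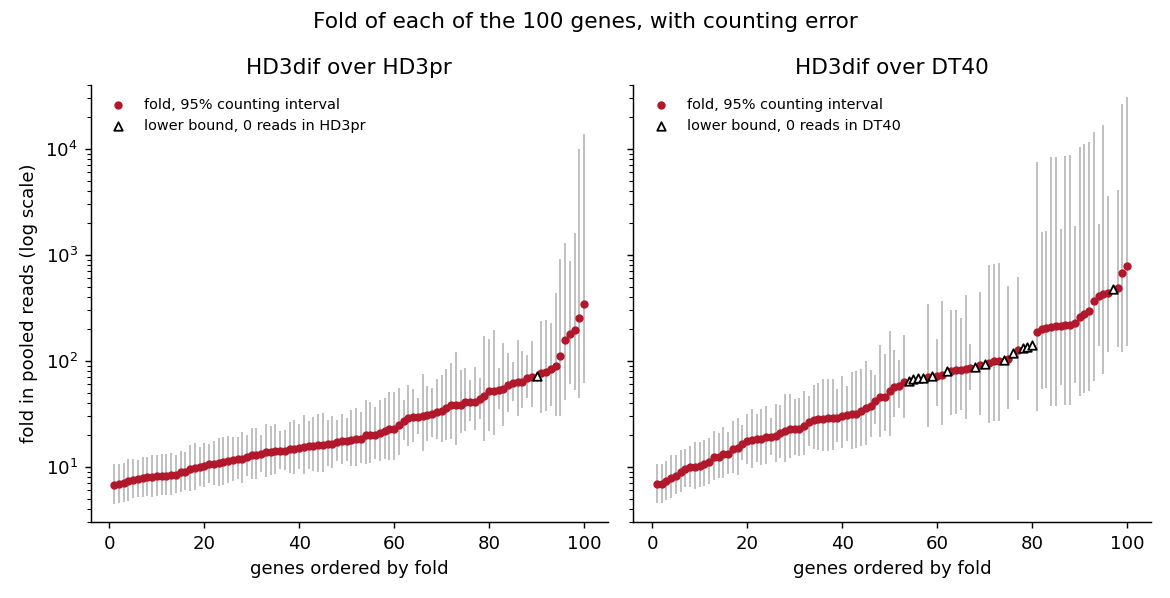
Fold of HD3dif over HD3pr (left) and over DT40 (right) in pooled reads, on a log scale, for the 100 genes in increasing order. Grey lines are exact 95% counting intervals. Open triangles, labelled as lower bounds, take 3 reads in place of 0, for 1 gene over HD3pr and 14 over DT40. The exact intervals of these genes are not drawn and start below the triangles, which are therefore no strict lower bounds. The medians are 17.7 over HD3pr and 54.2 over DT40, and intervals widen where the lower cell type had 1 to 3 reads.

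These folds use the total of gene reads as the scale. Folds over all counted reads are not given. Reads on genes were 34.4% of all counted reads in HD3dif, 45.3% in HD3pr and 54.6% in DT40, so that scale would differ between cell types. TMM factors were 1.09 and 1.08 in HD3dif, 0.915 in both HD3pr libraries, and 0.998 and 1.01 in DT40. With them the median log2 fold over HD3pr of the set was 3.90 rather than 4.15, and that over DT40 5.65 rather than 5.76. The median of all 10898 tested genes was 0.03 with TMM and 0.28 with totals over HD3pr, and 0.04 and 0.15 over DT40 (fitted log2 fold changes of edgeR).

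In the edgeR quasi-likelihood fit over all genes with more than 1 CPM in at least 2 of 6 libraries, all 100 genes were tested, and each entered through its HD3dif libraries alone. A gene was called higher where its log2 fold change was above 0.6 and its adjusted p below 1e-07. Of the 100 genes 61 were called higher in HD3dif than in HD3pr, against 12.0% of all tested genes, and 87 were called higher than in DT40, against 27.3%. The selection used these same contrasts, so nothing can be read from these counts or from their difference to the background. Both contrasts share the HD3dif libraries.

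The counts of calls also moved with the libraries and the fit used. Without HD3pr replicate 1 the number called against HD3pr was 22, and without HD3pr replicate 2 it was 18. Over all tested genes the number called higher than in HD3pr also fell without either of these libraries. With the replicate number as a block 33 of the 100 were called against HD3pr, and 1001 of all tested genes rather than 1306. With no limit on the fold all 100 genes were below an adjusted p of 0.05, and 4360 of the 10898 tested genes were higher at that limit. Without DT40 replicate 2 the number called against DT40 was 42. The number of all tested genes called higher than in DT40 fell there as well. Without either HD3dif library 0 of the 100 genes passed the filter, so no number can be given.

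The HD3dif replicates of individual genes differed by up to 2-fold. The level in replicate 2 was 0.500 to 1.92 times that in replicate 1, with a median of 1.01 and quartiles of 0.828 and 1.17. It was higher in replicate 2 for 51 genes and in replicate 1 for 49. The replicates were over 1.5 times apart for 12 of the 100 genes, led by rank 4 (21.7 and 10.8 CPM) and rank 49 (2.84 and 5.45 CPM). Among the 3192 other genes in the same range of HD3dif levels, 3.41% were that far apart, and 2675 of these genes lay between 5 and 25 CPM. Between 3 and 5 CPM the share was 13.6% of the set (9 of 66) and 10.4% of 517 others. Between 5 and 25 CPM it was 8.82% (3 of 34) and 2.06% of the others. No test of these shares was run. Both HD3dif libraries were at or above 3 CPM for 80 genes.

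**Figure D4:**
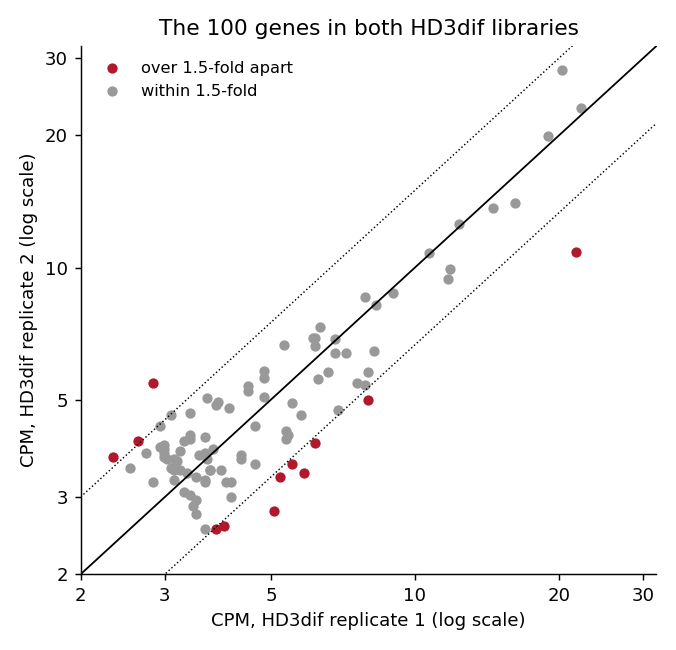
CPM of the 100 genes in HD3dif replicate 2 against replicate 1, both on log scales, with the line of equal levels (solid) and 1.5-fold differences (dotted). The 12 genes over 1.5-fold apart are red, and the farthest is the gene of rank 4 with 21.7 CPM in replicate 1 and 10.8 CPM in replicate 2.

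Genes were also chosen in the libraries of a single replicate number and looked up in the other 3 libraries. This split was chosen after seeing the data and used the contrasts of the selection. It describes how the replicates repeated and is no support for the set. The same limits applied to the 3 libraries of replicate 1 chose 95 genes, 76 of them in the set of 100. In the libraries of replicate 2, HD3dif was above HD3pr and DT40 for 95 of these 95 genes, by at least 2.35 times, whereas this was so for 49.5% of the 14746 genes with a read there. All 3 limits were met again by 57 genes. The HD3dif limit was met by 75, the HD3pr limit by 79 and the DT40 limit by 90. The median level of the 95 genes in the libraries of replicate 2 was 4.16 CPM in HD3dif, 0.201 CPM in HD3pr and 0.0897 CPM in DT40.

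Choosing in replicate 2 and looking in replicate 1 gave a similar picture. Of 94 genes chosen, 76 belonged to the set of 100. HD3dif was above HD3pr and DT40 in the libraries of replicate 1 for all 94, by at least 2.21 times, against 49.4% of 14665 genes with a read. All 3 limits were met again by 57 genes. The median levels in replicate 1 were 4.08 CPM in HD3dif, 0.262 CPM in HD3pr and 0.0696 CPM in DT40. The direction was thus found again in libraries that had not chosen the genes, whereas 38 of 95 and 37 of 94 genes missed at least 1 limit there. With limits 6-fold apart, this order is likely wherever replicates are similar. All genes with a read are also no background of matched level. These values therefore describe how the replicates repeated and are no support for the set.

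The limit of 3 CPM lies in a continuous range of levels and marks no gap. Just inside it, the last 3 genes had mean HD3dif levels of 3.01, 3.02 and 3.04 CPM. Just outside it, genes that met the other limits had 2.99, 2.96 and 2.93 CPM. The gene at 3.01 CPM had 51 and 84 reads in HD3dif, and the gene at 2.99 CPM had 51 and 83. At the HD3pr limit the nearest genes inside had 0.498, 0.498 and 0.497 CPM in HD3pr and the nearest outside 0.514, 0.516 and 0.531 CPM. At the DT40 limit they had 0.495, 0.480 and 0.475 CPM inside and 0.508, 0.520 and 0.530 CPM outside. The nearest gene outside the DT40 limit had 179 and 42 reads in the HD3dif libraries. As a ratio between the replicates, this was wider than for any gene in the set.

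The 100 genes are the upper end of a larger group. Of all genes, 6174 (36.1%) were below 0.5 CPM in both HD3pr and DT40, and 2054 of these had 0 reads in all 6 libraries. In HD3dif 917 of the 6174 reached 0.5 CPM, 454 reached 1 CPM, 197 reached 2 CPM, 100 reached 3 CPM (1.62%) and 10 reached 10 CPM. A read was found in 52.9% and 55.3% of the 6174 in the HD3dif libraries, and in 34.2% and 33.3% in the HD3pr libraries. In the DT40 libraries these shares were 35.4% and 37.3%. The HD3dif libraries had the fewest reads on genes, but not the fewest counted reads. All counted reads numbered 56204690 and 72817624 in HD3dif, 68821944 and 64523296 in HD3pr, and 53441424 and 60297291 in DT40. The part of depth in these shares was not tested. The 6074 genes outside the set had a summed level of 1335 ± 5.28 CPM in HD3dif, 267 ± 7.95 CPM in HD3pr and 315 ± 14.7 CPM in DT40 (mean ± SD, n = 2). The 100 genes made up 29.5% of the summed HD3dif level of the 6174. The levels in HD3pr and DT40 were capped by the choice of these genes and those in HD3dif were not.

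The same limits were applied with each of the other cell types in the high place. At least 3 CPM in HD3dif and below 0.5 CPM in both others was met by 100 genes, the same with HD3pr high by 3 genes, and with DT40 high by 257. As shares of the genes below 0.5 CPM in both other cell types, these were 1.62%, 0.0565% and 4.43%. HD3dif and HD3pr are the same line with and without 14 h of induction, whereas DT40 is another line. The 3 numbers therefore do not compare like with like. Genes high in HD3dif alone were also read at lower levels than those high in DT40 alone. The median was 4.07 CPM in HD3dif and 11.2 CPM in DT40, and the highest level was 24.3 CPM in HD3dif and 575 CPM in DT40. A level of 10 CPM was reached by 10 of the 100 genes in HD3dif and by 139 of the 257 in DT40. The numbers of genes high in HD3dif, HD3pr and DT40 alone were 78, 4 and 263 with TMM factors. They were 26, 1 and 297 over all counted reads, where the same limits stood for more reads of a gene. Their order was the same on all 3 scales and the number for HD3dif was not.

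**Figure D5:**
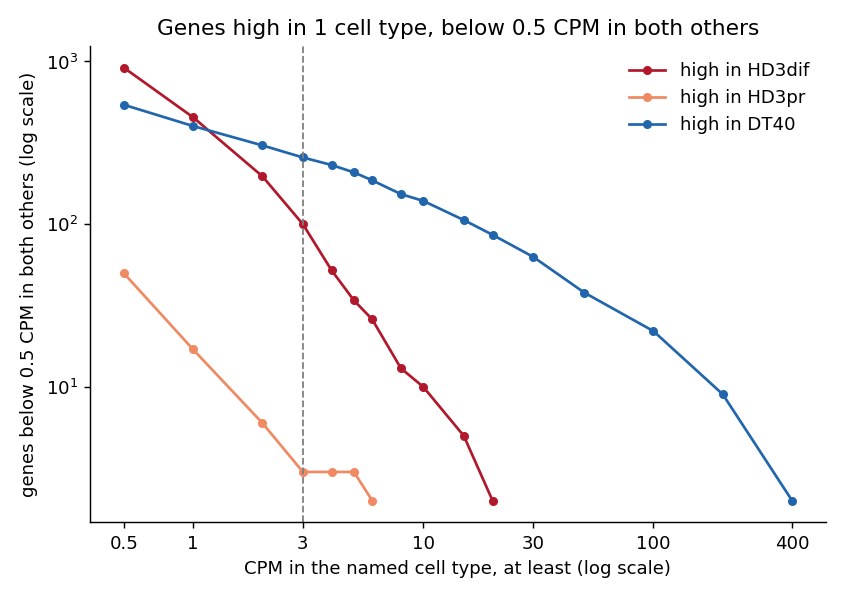
Number of genes at or above a given mean CPM in the named cell type (horizontal axis) among genes below 0.5 CPM in both other cell types, on log scales. At 3 CPM (dashed line) there are 100 genes for HD3dif, 3 for HD3pr and 257 for DT40. The HD3dif curve starts at 917 genes at 0.5 CPM, above the 542 of DT40, and falls to 10 genes at 10 CPM, where DT40 has 139.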

How the data were processed

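RNA-seq counts of 2 DT40, 2 HD3pr and 2 HD3dif libraries were used. The authors called bases with CASAVA 1.8.2, aligned reads to galGal4 with TopHat (TopHat2 2.0.12 and Bowtie2 2.2.1 in the submitters' processing notes) and Ensembl annotation, and deposited unnormalized HTSeq read counts per Ensembl gene. A stranded kit was used, the strand setting of HTSeq is not given in the sources used here, and counts of overlapping genes are thus uncertain. Reads without a unique alignment were left unassigned, so counts of near-identical genes are uncertain too. The 5 rows of unassigned reads stayed out of library totals (their share is given with the results). Base coverage, 5C and C-TALE files were not used, because the identifiers could not be placed on galGal4. The RefSeq table used here (assembly GRCg7b) matched 0 identifiers, so the gene lists written for named genes, promoters and neighbours were not run.

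CPM is the count divided by the total of gene rows, times 1000000, averaged over 2 replicates. The genes studied, the gene lists and the limits were chosen with earlier results of these data known. Rank and identifiers follow a fixed rule, the highest mean HD3dif levels. Counts were fitted with edgeR 4.0.16 in R 4.3.3 (quasi-likelihood, TMM, all 6 libraries, Benjamini-Hochberg adjustment over 10898 genes). A run of this fit on simulated counts left out the CPM filter, and nothing given here rests on it. The fit was repeated with DESeq2 1.42.0, with a replicate block, with other scalings, filters and limits, with 2 cell types only and without each library in turn. Folds pool reads over replicates, with exact binomial 95% intervals and 3 reads as the limit for a count of 0. Python 3.11.15 with scipy 1.17.1 was used for the remaining values.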

Additional observations from a re-analysis of the deposited data

How the results depend on the processing

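The number of genes meeting the limits moved from 100 to 78 with TMM-adjusted totals, and to between 93 and 103 without 1 library. It was 26 over all counted reads, where 11 of the 100 remained, and 57 when every library had to be on its side of the limits. Over all counted reads the same limits applied to a larger total, so each stood for more reads of a gene. This shift was unequal, since reads on genes were 34.4% of all counted reads in HD3dif, 45.3% in HD3pr and 54.6% in DT40. It was 37 with 0.25 CPM and 209 with 1 CPM as the upper limit for HD3pr and DT40, and 454 and 26 with 1 and 6 CPM as the lower limit for HD3dif. Chosen after seeing the data, the libraries of replicate 1 or 2 alone gave 95 and 94.

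Of these genes 61 were called against HD3pr and 87 against DT40. Against DT40 the number was 65 with the replicate block, where 2607 of all tested genes were higher rather than 2973. The number against HD3pr was 100 without a filter, 95 with the 2 cell types alone and 33 with that block. Over all genes tested in each fit, 2024, 1697 and 1001 were then higher than in HD3pr, rather than 1306. Where an adjusted p below 0.05 was the sole limit, 4360 of all genes were higher. The number of the set against HD3pr was then also 100. It ranged from 18 to 86 when 1 DT40 or HD3pr library was left out, and the number against DT40 from 42 to 87. Leaving out an HD3dif library gave no value, since the genes then failed the filter. The cause of these shifts was not tested. Over all genes, calls against HD3pr numbered 3336, 8639 with that sole limit, and 2022 to 3754 when 1 library was left out. Calls against DT40 numbered 5931, 9739 and 4406 to 5691. With library totals 1968 genes were higher and 1395 lower than in HD3pr, rather than 1306 and 2030.

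The differences between replicates 1 and 2 were almost uncorrelated between cell types, across 10898 genes. The correlation was -0.03 between HD3dif and HD3pr, -0.06 between HD3dif and DT40 and 0.05 between HD3pr and DT40. These values cannot tell whether libraries of the same replicate number were prepared together, which the labels do not give. With the replicate block 2806 genes were called against HD3pr and 5310 against DT40. At 0.5 CPM a library held 10.1 to 16.7 reads of a gene, which limits every statement on residual levels.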
